A study of Homo sapiens with 2 samples.

Results

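The collagen genes of the human autosomes were examined in CAMA-1, an epithelial cell line from the mammary gland that models luminal breast cancer. Members were the GENCODE protein-coding genes on autosomes whose symbols read COL, digits, A, digits, which gave 42 of 19111 autosomal protein-coding genes. Chromatin accessibility was measured in untreated adherent cells by ATAC-seq, which sequences the DNA that a transposase, Tn5, can cut and tag because it lies open, in 2 biological replicates of 50000 cells. The replicates formed a single condition, so no groups of samples were compared, and the values below are described without a test. The wider study dealt with cell-free chromatin in models of cancer, and its other assays and models were not analysed here. The peak lists held 245736 and 259745 peaks in replicates 1 and 2.

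Collagens are secreted or membrane proteins in which 3 chains wind into a triple helix, and each chain is encoded by its own COL gene. Fibrillar collagens build the load-bearing fibers of skin, bone and cartilage and are made mostly by fibroblasts, osteoblasts and chondrocytes. Basement membrane collagens form or anchor the sheet beneath epithelia and around vessels, and transmembrane collagens sit in the plasma membrane with their helix outside the cell. Carcinoma cells grow in a stroma in which most fibrillar collagen comes from fibroblasts, and epithelial cells themselves lay down part of the basement membrane. By class, the 42 genes were 11 fibrillar, 7 basement membrane, 4 transmembrane, 10 fibril-associated, 5 beaded filament and 3 short-chain network collagens, with 2 others.

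Start sites on which results below turn are shown here, each read from hg38 in the direction of transcription and ending just upstream of the exon at the canonical transcription start site (TSS), the start of the transcript that Ensembl picks to represent the gene. Capitals mark a TATA box (TATAAA, sense strand), a CCAAT box (CCAAT, or ATTGG on the other strand) and a GC box (GGGCGG, or CCGCCC on the other strand). The first is COL1A2, a gene of type I collagen with a TATA box and 2 CCAAT boxes, at chr7:94394645-94394894 on the plus strand, whose peak lay inside the gene. The next are transmembrane collagens, COL17A1 (chr10:104085881-104086130, minus strand), which had no peak at this start, and COL23A1 (chr5:178590394-178590643, minus strand), which had one. In COL17A1 a GATA motif (AGATAA) shares a base with the CCAAT match and is capitalized with it.
COL1A2: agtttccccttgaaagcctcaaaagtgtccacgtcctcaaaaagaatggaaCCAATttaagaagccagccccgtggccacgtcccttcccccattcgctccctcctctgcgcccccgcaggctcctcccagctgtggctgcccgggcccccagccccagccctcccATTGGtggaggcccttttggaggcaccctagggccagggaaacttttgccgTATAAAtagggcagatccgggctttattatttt
COL17A1: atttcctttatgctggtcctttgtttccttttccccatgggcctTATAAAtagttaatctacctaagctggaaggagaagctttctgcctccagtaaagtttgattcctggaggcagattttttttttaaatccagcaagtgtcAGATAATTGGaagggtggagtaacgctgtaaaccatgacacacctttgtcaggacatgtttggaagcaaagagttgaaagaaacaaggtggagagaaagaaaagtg
COL23A1: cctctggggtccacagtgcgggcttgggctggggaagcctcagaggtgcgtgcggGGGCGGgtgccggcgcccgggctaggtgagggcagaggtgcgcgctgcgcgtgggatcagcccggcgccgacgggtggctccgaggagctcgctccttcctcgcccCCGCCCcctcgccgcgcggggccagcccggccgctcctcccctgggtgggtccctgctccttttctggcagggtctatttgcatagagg

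The type IV genes lie in head-to-head pairs, and only 1 of the autosomal pairs carried a peak at its shared start. For both autosomal pairs, the longest part between the paired starts that holds no annotated exon bases is shown. This part was chr13:110307158-110307257 for COL4A1 and COL4A2 and chr2:227164206-227164395 for COL4A3 and COL4A4, both printed on the plus strand. The former holds a CCAAT box and a GC box, and the latter holds none of the motifs searched. These matches cover the printed parts only, and the window around the canonical TSS of COL4A3 searched below, which runs past its printed part, holds a GC box.
COL4A1/COL4A2: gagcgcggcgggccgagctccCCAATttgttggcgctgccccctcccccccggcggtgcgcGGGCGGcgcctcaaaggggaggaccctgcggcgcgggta
COL4A3/COL4A4: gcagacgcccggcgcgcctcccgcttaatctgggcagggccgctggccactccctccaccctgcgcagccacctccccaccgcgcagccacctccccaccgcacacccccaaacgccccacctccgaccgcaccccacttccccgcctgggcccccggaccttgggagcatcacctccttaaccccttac

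A peak in both replicates lay within 1 kb of at least 1 annotated TSS in 34 of the 42 collagen genes (81.0%), beside 80.5% of all autosomal protein-coding genes. This likeness depended on the window and on strength: within 100 bp of a TSS it was 23 of 42 (54.8%), beside 74.3%, and with the 50000 strongest peaks of each replicate 18 of 42 (42.9%), beside 62.6%. It was also absent at the canonical TSS. Here 22 of 42 collagens (52.4%) had a peak within 1 kb, beside 74.6% of all genes, and in 11 of 42 (26.2%) the peak lay over the canonical TSS itself, beside 66.0%. Both replicates gave the same call for each of the 42 genes, with 0 genes called in a single replicate at any TSS or at the canonical TSS. In 12 of the 34 collagens with a TSS peak (35.3%) it lay only at a TSS other than the canonical one, beside 1114 of 15379 genes (7.24%). Collagen genes had a median of 7.5 annotated TSSs and a median length of 133 kb, beside 5 TSSs and 27.9 kb over all genes, and the part of these differences in the counts at any TSS was not tested.

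**Figure D1:**
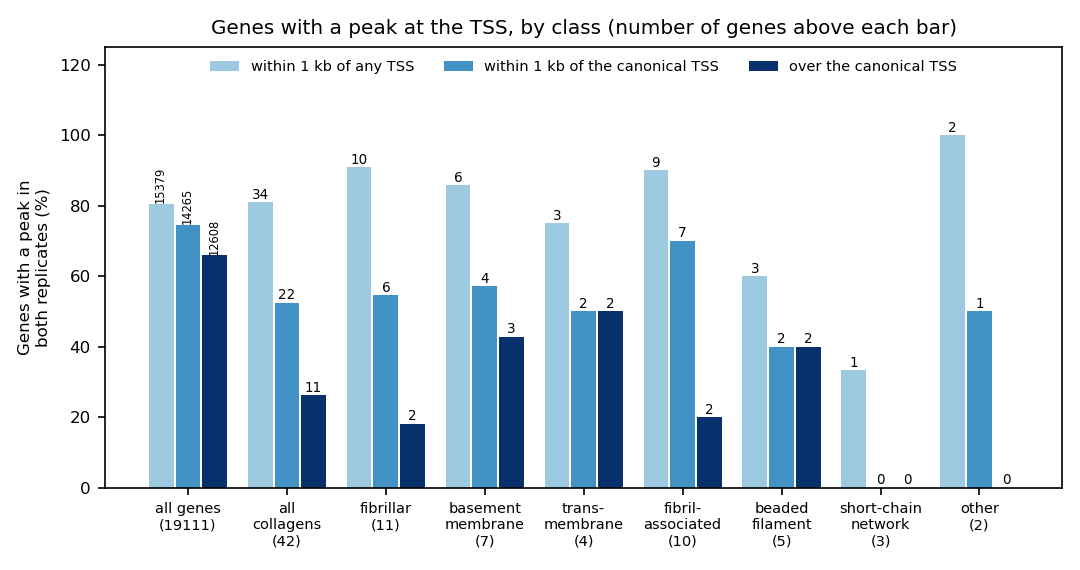
Share of genes (%) with a peak in both replicates within 1 kb of any annotated TSS, within 1 kb of the canonical TSS or over the canonical TSS, for all genes and for each collagen class, with the number of genes above each bar and the size of each class in parentheses. Collagens stand close to all genes at any TSS (34 of 42) and fall to 11 of 42 over the canonical TSS.

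The peaks at collagen TSSs were also low for a TSS. Strength was read as fold enrichment, the height of a peak over a background that was a single value in each replicate. The median over the strongest TSS peak of each collagen gene that had one was 32.0 in replicate 1 and 30.5 in replicate 2 (31.2 ± 1.04, SD, n = 2 replicates), whereas the median over all genes with one was 51.8 and 53.3. At the canonical TSS the medians were 27.6 and 29.9 for collagens, beside 48.5 and 50.2. Of the 22 canonical peaks, 3 reached the median of all genes in both replicates, those of COL1A1, COL14A1 and COL23A1, beside 6944 of 14265 genes. The average collagen gene thus had no sharp rise in coverage at its start: at 500 bp upstream 10 of 42 collagens were covered by a peak in both replicates (23.8%), at the TSS 26.2%, and at 500 bp downstream 5 of 42 (11.9%), whereas over all genes the shares were 36.8%, 66.0% and 37.0%.

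**Figure D2:**
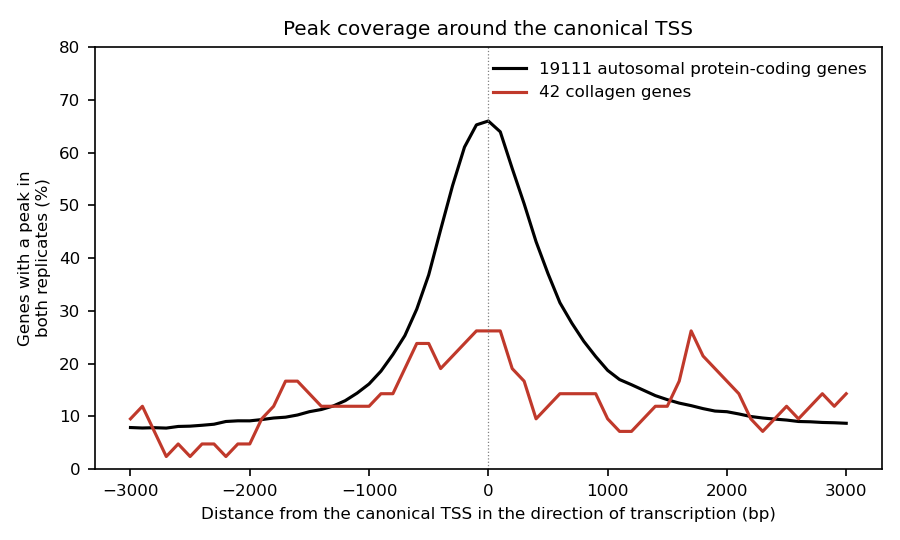
Share of genes (%) covered by a peak in both replicates at each distance (bp) from the canonical TSS, in steps along the direction of transcription, for the 42 collagen genes and all 19111 genes. All genes form a single peak of 66.0% at the TSS, and collagens stay at or below 26.2% throughout.

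At 1700 bp inside the gene 11 collagens (26.2%) were covered, as many as at the start, beside 2298 of 19111 genes, and this distance was picked after the profile was seen. These 11 were COL1A1, COL5A1, COL5A3 and COL11A1 of the fibrillar class, COL4A1 of the basement membrane class, COL9A2, COL9A3, COL12A1, COL16A1 and COL20A1 of the fibril-associated class, and COL28A1. Their fold enrichments there ran from 4.60 in COL20A1 to 73.4 in COL1A1 in replicate 1.

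Of the fibrillar collagens, 10 of 11 had a peak at some TSS, 6 at the canonical TSS and 2 over it. Positions inside genes are given below as the distance from the canonical TSS to the midpoint of the peak in replicate 1, and pairs of values are for replicates 1 and 2. The type I genes, whose chains make the main fibers of skin and bone, both opened inside their first intron. COL1A1 (chr17:50184101-50201632) had the highest fold enrichment of the class, 73.4 in replicate 1 and 67.2 in replicate 2 (70.3 ± 4.37, SD, n = 2), with 318 reads stacked in replicate 1 (95% exact Poisson interval 284 to 355) and 303 in replicate 2 (270 to 339). Its peak began 378 and 551 bp inside the gene. COL1A2 (chr7:94394895-94431227) gave 17.5 and 19.0 (18.3 ± 1.08), from 75 and 85 reads, and its peak began 531 and 572 bp inside the gene, so that the TATA and CCAAT boxes printed above lay outside it. The values of the 2 genes did not overlap, although their chains join in the same helix. The peaks of both genes also lay within 1 kb of the TSS of an unnamed long noncoding RNA, and reads from the start of one transcript or the other cannot be told apart.

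The chains that join type I fibers in smaller amounts differed among themselves. COL5A1, whose product sets fiber diameter, had 26.9 and 33.2 over its canonical TSS and a higher peak, 57.8 and 64.3, at a TSS 166158 bp inside the gene, in intron 42. COL5A2 had no peak within 1 kb of the canonical TSS, and its only TSS peak, with 8.51 and 8.18, lay upstream of the gene, with its midpoint at -46492 bp from the canonical TSS. COL5A3 had its strongest peak, 5.75, in intron 1 in replicate 1 and 4.20 in coding exon 1 in replicate 2, and these 2 peaks did not overlap. Replicate 1 had a further peak of 5.06, 8 bp from the canonical TSS. It overlapped the peak of replicate 2, which lay 23 bp from this TSS. COL3A1, which encodes a collagen of vessels and other distensible tissues, had no peak at the canonical TSS, and its 8.28 and 12.4 came from coding exon 35, at a midpoint 27934 bp into the gene. The nearest peak to its start was 2418 and 2409 bp away, with 6.67 and 5.09. So only COL5A1 of these 4 genes had a peak over its main start, and COL5A3 had a low peak next to its own in both replicates.

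The collagens of cartilage fibers were mostly low at their starts. COL2A1, the main collagen of cartilage, reached only 4.60 and 3.98 at its TSSs, from 19 and 17 reads, with the peak of replicate 1 lying 27634 bp into the gene. Its nearest peak to the canonical TSS was far higher, 86.1 and 90.2 (88.1 ± 2.95, SD, n = 2), and lay 2098 and 2047 bp inside the gene in intron 1, beyond the 1 kb window. COL11A1 had 6.90 and 19.0 at a TSS other than the canonical one, and this spread, the widest of the class (13.0 ± 8.57), arose where replicate 1 had separate peaks and replicate 2 a single longer one. At 1700 bp inside the gene the same stretch of COL11A1 had 20.5 in replicate 1 and 19.0 in replicate 2. COL11A2 had 18.6 and 19.5 in intron 1. COL27A1, found in cartilage and developing epithelia, had 34.7 and 38.3 over its canonical TSS and 50.4 and 43.8 at a TSS 150294 bp inside the gene. COL24A1 had no TSS peak in either replicate. Its nearest peak lay 51042 and 51089 bp inside the gene, in intron 5, with 71.6 and 84.9.

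**Figure D3:**
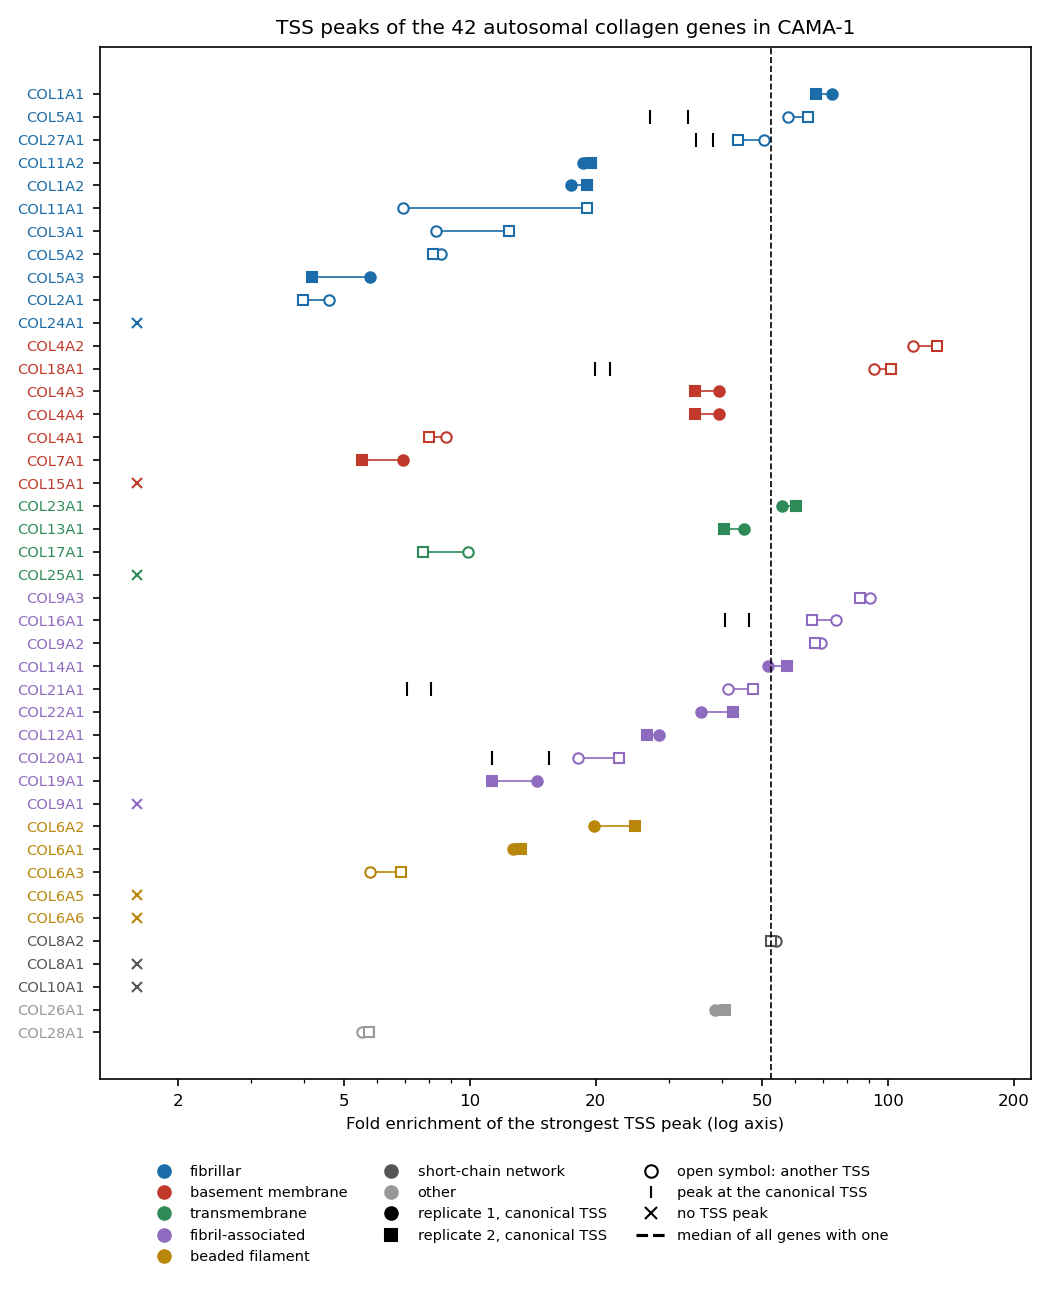
Fold enrichment (log axis) of the strongest TSS peak of each of the 42 collagen genes, ordered by class, with a circle for replicate 1 and a square for replicate 2. Filled symbols lie within 1 kb of the canonical TSS, open symbols at another TSS with any canonical peak as vertical ticks, crosses mark the 8 genes with no TSS peak, and the dashed line is the mean over the 2 replicates of the median of all genes with a TSS peak. Most collagens lie to the left of this line, and COL4A2 is highest with 115 and 131.

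Of the basement membrane collagens, 6 of 7 had a peak at some TSS, 4 at the canonical TSS and 3 over it. COL4A1 and COL4A2 encode the chains found in nearly every basement membrane and start 127 bp apart on chromosome 13, at positions 110307157 and 110307284, and are transcribed away from each other. Neither replicate had a peak within 1 kb of this shared start. A peak of 7.13 lay 1520 bp off in replicate 1, and one of 8.18 lay 1363 bp off in replicate 2. These peaks overlapped and lay within 1 kb of the most 5′ annotated TSS of COL4A2, at 110305812. COL4A1 had its TSS peak, 8.74 and 7.96 (8.35 ± 0.554, SD, n = 2), at a minor TSS in intron 4. COL4A2 had the highest TSS peak of the 42 genes, 115 and 131 (123 ± 11.5), from 499 reads (456 to 545) and 593 reads (546 to 643). This peak lay in intron 46 at a midpoint 200444 bp from the canonical TSS, near the end of the gene, and within 1 kb of the TSS of the antisense RNA COL4A2-AS1, so the starts of the 2 genes cannot be told apart here.

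COL4A3 and COL4A4, which encode the chains of the kidney and lung basement membrane, start 419 bp apart on chromosome 2, at 227164624 and 227164205. A single peak covered both starts, at 227163840 to 227165365 in replicate 1, with 39.3 and 34.5 (36.9 ± 3.43, SD, n = 2) from 170 and 155 reads, and it is counted for both genes. The pairs thus differed in the state of their shared start in both replicates, though both stretches printed above are rich in CpG, with a ratio of observed to expected CpG of 0.921 between COL4A1 and COL4A2 and 0.763 between COL4A3 and COL4A4.

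**Figure D4:**
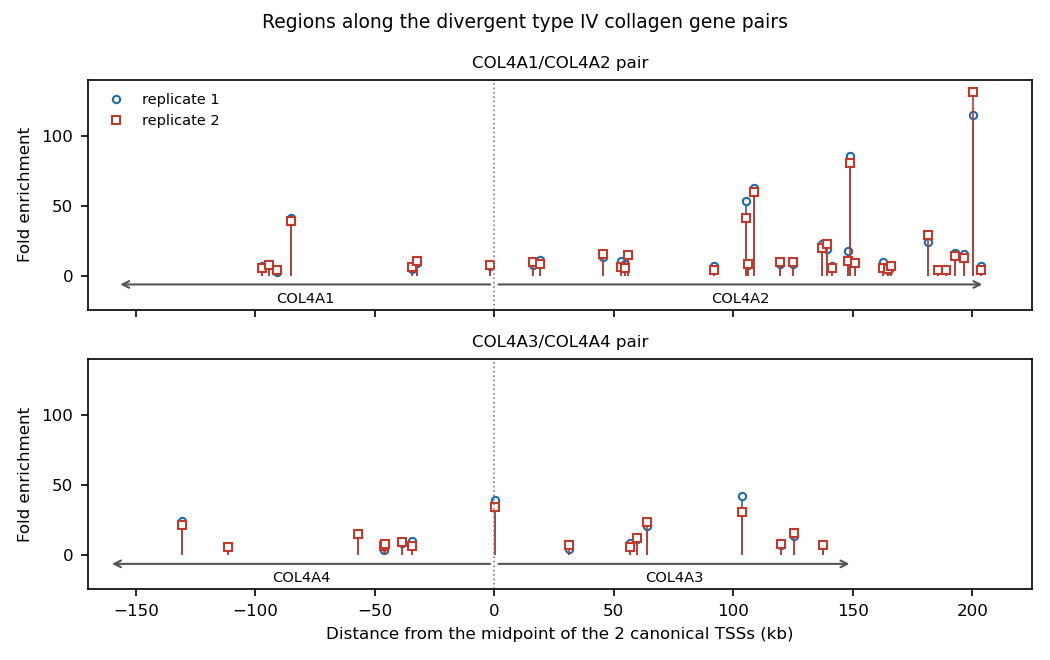
Fold enrichment in replicates 1 and 2 of each region found in both, by distance (kb) from the midpoint between the 2 canonical TSSs, along the COL4A1/COL4A2 and COL4A3/COL4A4 pairs, with arrows for the extent and direction of each gene. The shared start at 0 has a region of 39.3 and 34.5 in the lower pair and none in the upper pair, where the highest region lies 200444 bp into COL4A2.

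Of the other basement membrane collagens, COL18A1, whose product yields endostatin, had overlapping peaks over its canonical TSS in both replicates, with 19.1 and 19.9. Its strongest peak within 1 kb of this TSS was a separate one of 21.6 in replicate 1 and the same one of 19.9 in replicate 2. It had 92.5 and 101.9 at a TSS 50136 bp inside the gene, in intron 2 (97.2 ± 6.68, SD, n = 2). COL7A1, which forms the anchoring fibrils under the epidermis, had 6.90 and 5.53 just upstream of the gene, from 29 and 24 reads. COL15A1 had no TSS peak, and its nearest peak lay 18092 and 18019 bp away with 6.21 and 6.63. No canonical peak of this class reached the median of all genes in either replicate.

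Of the transmembrane collagens, 3 of 4 had a peak at some TSS and 2 had one over the canonical TSS. COL23A1 had 55.7 and 60.4 (58.0 ± 3.31, SD, n = 2) from 241 and 272 reads, over a GC-rich start with the 2 GC boxes printed above. COL13A1, present at focal contacts, had 45.3 and 40.5 (42.9 ± 3.44). COL17A1, a component of the hemidesmosomes of basal epithelial cells, had no peak within 1 kb of its canonical TSS. It had 9.89 and 7.74 at a TSS in intron 1, 4905 bp away. Its TATAAA match began at base 45 of the 250 printed, farther from the start than that of COL1A2, at base 218 of 250. COL25A1, found in neurons, had no TSS peak, and its nearest peak lay 3720 and 3716 bp away with 9.89 and 10.6. Thus COL23A1 and COL13A1 lay above the collagen median in both replicates, COL17A1 lay below it, and COL25A1 had no value.

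With 11, 7 and 4 genes, the classes overlapped widely. Over the genes with a TSS peak, the class medians at any TSS were 13.0 and 19.0 in replicates 1 and 2 for fibrillar, 39.3 and 34.5 for basement membrane and 45.3 and 40.5 for transmembrane collagens. At the canonical TSS they were 22.8 and 26.3, 30.5 and 27.2, and 50.5 and 50.4. The fibrillar medians were below the other 2 in both replicates, but single genes ran from 4.60 to 73.4, from 6.90 to 115 and from 9.89 to 55.7 in replicate 1. The basement membrane medians count the shared peak of COL4A3 and COL4A4 for both genes. At the canonical TSS, the order of these medians and the fibrillar ones rests on that double count. The other basement membrane genes with a canonical peak, COL18A1 (21.6 and 19.9) and COL7A1 (6.90 and 5.53), lay below the fibrillar medians there. Of the fibrillar, basement membrane and transmembrane medians at any TSS, the fibrillar one was the least alike between replicates (16.0 ± 4.25, SD, n = 2). COL11A1, whose stretch was split into separate peaks in replicate 1, entered it with 6.90 and 19.0.

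Among the other classes, 9 of 10 fibril-associated, 3 of 5 beaded filament and 1 of 3 short-chain network collagens and both other genes had a peak at some TSS. The 3 highest were COL9A3 with 90.7 and 85.6 in its intron 10, COL16A1 with 75.2 and 65.9 in its intron 49, and COL9A2 with 69.3 and 67.0 in its intron 20, and all 3 peaks lay at TSSs inside the gene. At canonical TSSs the highest was COL14A1, a collagen on the surface of fibrils, with 51.5 and 57.5, followed by COL16A1 with 46.5 and 40.7, COL26A1 with 38.7 and 40.7, COL22A1 with 35.7 and 42.7 and COL12A1 with 28.3 and 26.5. Lower canonical peaks stood at COL6A2 (19.8 and 24.8), COL19A1 (14.5 and 11.3), COL20A1 (11.3 and 15.5), COL6A1 (12.7 and 13.3) and COL21A1 (8.05 and 7.08). COL6A1 and COL6A2 encode chains of the beaded filaments of type VI, and the third chain, COL6A3, had no canonical peak. The canonical peaks of COL20A1 did not overlap between replicates, with that of replicate 1 downstream and that of replicate 2 upstream of the TSS. The COL19A1 peak lay within 1 kb of the TSS of LMBRD1 too. COL8A2 (54.1 and 52.4, in coding exon 3), COL6A3 (5.75 and 6.85) and COL28A1 (5.52 and 5.75) also had a peak only at TSSs other than the canonical one. The peaks of COL6A3 did not overlap between replicates, since that of replicate 1 lay in intron 23 and that of replicate 2 in intron 8. An inner TSS also gave COL21A1 and COL20A1 their highest peak, with 41.4 and 47.5 and with 18.2 and 22.8. In all, 8 genes had no TSS peak in either replicate: COL24A1, COL15A1, COL25A1, COL9A1, COL6A5, COL6A6, COL8A1 and COL10A1, the last a marker of hypertrophic cartilage.

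Promoters rich in CpG are open in most cell types, so the canonical starts were split by the ratio of observed to expected CpG in the 250 bases before to 50 after the TSS. With a ratio of at least 0.6, 13 of 24 collagens (54.2%) had a canonical peak, beside 89.4% of all genes. With a ratio under 0.6, 9 of 18 (50.0%) had one, beside 43.4% of all genes. The lower share of collagens was therefore found among CpG-rich starts. The 11 CpG-rich starts without a peak were those of COL2A1, COL24A1, COL4A1, COL4A2, COL15A1, COL25A1, COL9A2, COL9A3, COL6A6, COL8A1 and COL8A2, with ratios that reached 1.10 in COL25A1. All 7 basement membrane starts were CpG-rich and 4 had a peak, whereas 7 of 11 fibrillar starts were CpG-poor and 4 of those 7 had one. The median ratio was 0.637 for collagens with a canonical peak and 0.672 for those without, whereas over all genes it was 0.839 with and 0.311 without.

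The same windows were searched for short motifs. A TATA box stood in 6 of 42 collagen windows (14.3%), beside 7.18% of all genes, among them COL1A2, COL13A1, COL17A1, COL6A2 and COL10A1. A CCAAT box stood in 13 of 42 (31.0%, beside 35.7%) and a GC box in 27 of 42 (64.3%, beside 61.7%). CCGGAA, the core of ETS factor sites, was searched on both strands and stood in 0 of 42 windows, beside 22.9% of all genes. The share was 27.8% of genes with a canonical peak and 8.67% of genes without one, a group that held 20 of the 42 collagens. The AP-1 motif TGACTCA stood in 1 collagen window on either strand, that of COL6A1. The forkhead motif TGTTTAC also stood in 1, that of COL5A2. The GATA motif given above for COL17A1 stood in 4. The estrogen response element, GGTCA and its inverted repeat 3 bases apart, stood in 0. These matches describe the letters in the window and not bound sites.

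Away from TSSs, the density of accessible regions in collagen genes was near that of all genes. Regions were merged peaks found in both replicates, inside the gene and more than 1 kb from each of its TSSs. The 42 genes held 468 regions, or 7.61 per 100 kb, beside 7.51 over all genes and 7.39 over genes longer than 20 kb. Each of the 42 genes had at least 1 region, beside 13385 of all 19111 genes and 89.9% of genes longer than 20 kb. Collagen genes had a median length of 133 kb, beside 27.9 kb over all genes, and the part of length in this count was not tested. Of the 468, 371 lay in a later intron, 54 in the first intron, 6 in coding exons, 7 in UTR exons and 30 outside the canonical transcript. Their median fold enrichment was 8.46, beside 9.11 over all genes. Across the 468 regions the fold enrichments of the replicates had Pearson's r = 0.989 and Spearman's rho = 0.940, given as a description since regions share libraries.

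By class, the density per 100 kb was 8.11 for fibrillar, 9.0 for basement membrane and 10.1 for transmembrane collagens, and 5.82 for fibril-associated, 2.46 for beaded filament, 4.34 for short-chain network and 11.4 for the 2 other collagens. These densities turned on a few genes. Among genes longer than 20 kb, COL11A2 was the densest with 30.2 per 100 kb from 9 regions, followed by COL5A1 with 23.6 from 48, COL23A1 with 20.1 from 71, COL9A3 with 20.1 from 5 and COL20A1 with 19.2 from 8. COL23A1 alone held 71 of the 107 transmembrane regions, whereas COL25A1, the longest collagen gene at 494 kb, held 14 (2.83 per 100 kb). COL19A1 was the sparsest, with 3 regions in 346 kb (0.867 per 100 kb). COL4A2 had 25 regions and COL4A1 6, although the genes share a start. The COL4A1 region nearest this start lay within 1 kb of a TSS of COL4A2.

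**Figure D5:**
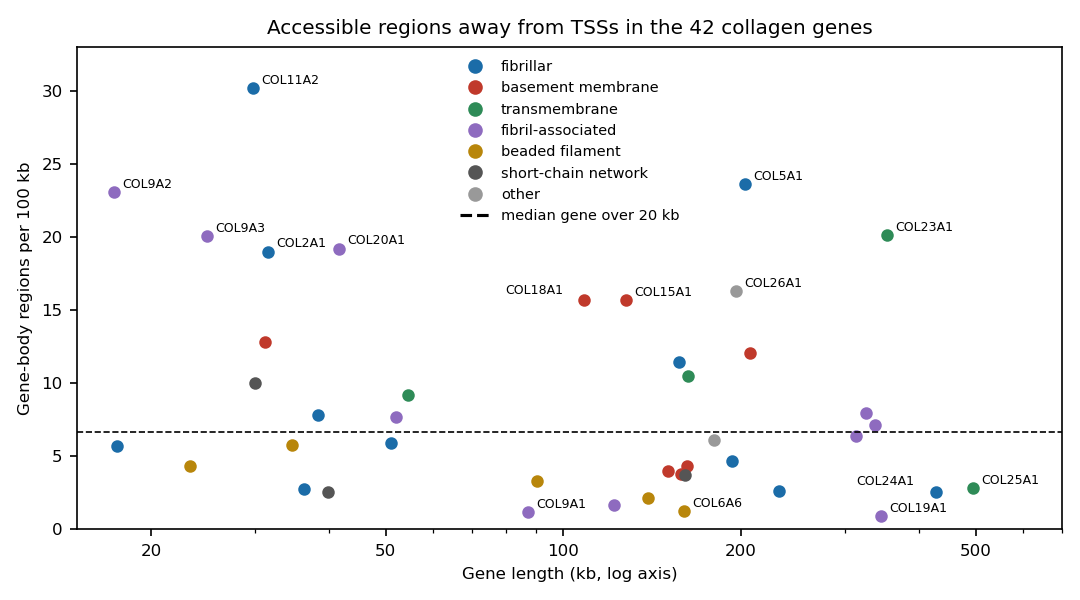
Regions per 100 kb of gene body, away from TSSs and found in both replicates, against gene length (kb, log axis), with a point for each of the 42 collagen genes coloured by class and a dashed line at the median of genes longer than 20 kb. Values run from 0.867 in COL19A1 to 30.2 in COL11A2, and each of the 3 main classes has genes on both sides of the line.

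Of the 5 strongest regions, 2 lay in introns of COL5A1, 2 in an intron of COL23A1 and 1 in COL21A1. The highest of the 468 was in intron 27 of COL5A1, at chr9:134778238-134780071, with 183 and 171 (177 ± 8.47, SD, n = 2), above every TSS peak of a collagen gene. The middle 200 bases of it, chr9:134779055-134779254 on the plus strand, are shown because no other region of these genes was as accessible, and hold none of the motifs searched.
COL5A1 intron 27: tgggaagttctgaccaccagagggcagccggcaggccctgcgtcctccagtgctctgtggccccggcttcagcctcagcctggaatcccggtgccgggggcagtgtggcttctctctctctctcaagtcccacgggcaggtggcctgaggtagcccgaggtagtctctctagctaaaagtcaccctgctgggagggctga
The next were a region of COL21A1 outside its canonical transcript (112 and 115), a region in intron 4 of COL5A1 (107 and 104) and both in intron 2 of COL23A1 (94.3 and 106, and 89.0 and 91.5). Of the 21 collagens longer than 20 kb with a canonical TSS peak, 14 (66.7%) had a region in the gene body that was stronger than this peak, beside 35.6% of 8897 such genes. COL5A1 went from 30.0 at the canonical TSS to 177, COL21A1 from 7.56 to 113 and COL23A1 from 58.0 to 100.2, each a mean of the 2 replicates. COL18A1 went from 20.8 to 62.6, also as means. That COL18A1 region, at UTR exon 42, lay within 1 kb of the TSS of SLC19A1 too, and the 2 genes cannot be told apart there. A COL18A1 region in intron 2, with no TSS of another gene within 1 kb, had 29.4. The longer bodies of collagen genes give more regions to choose from, and the part of length was not tested.

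Motif shares in the middle 200 bases of collagen gene-body regions are given beside those of all 93508 gene-body regions. The median GC content of these bases was 53.5% in collagen regions and 56.5% in fibrillar ones, beside 49.0%. The part of base content in the motif shares was not tested. The GC box stood in 8.12%, beside 5.88%, and in 12.2% of fibrillar regions. A TATA box stood in 3.63%, beside 4.79%, and a CCAAT box in 22.4%, beside 22.7%. AP-1 stood in 8.33%, beside 7.52%, GATA in 7.69%, beside 9.79%, forkhead in 4.49%, beside 5.79%, and ETS in 1.71%, beside 2.44%. The estrogen response element stood in 1 of 468 regions, in a fibrillar gene, beside 0.0791%.

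Most genes that modify, fold and export collagen chains had a canonical TSS peak. Of 15 genes for prolyl and lysyl modification, which hydroxylate and glycosylate the chains, 14 had a canonical TSS peak in both replicates, beside 74.6% of all genes, with medians of 69.1 and 70.5, beside 48.5 and 50.2. P4HB, a subunit of prolyl 4-hydroxylase, was highest with 189 and 176, COLGALT2 was lowest with 10.1 and 7.96, and P3H2 had no canonical peak. Of 10 genes for folding and export, 9 had one, with medians of 67.2 and 73.9, from SERPINH1, the collagen chaperone HSP47, with 187 and 178 to TMEM38B with 28.1 and 30.5, and MIA2 had none. A single peak served FKBP10 and P3H4 in both replicates, with 67.2 and 73.9, and is counted in both lists. These enzymes and chaperones serve other secreted proteins to differing degrees.

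Among genes that act on collagen outside the cell, the share with a canonical peak was near the 74.6% of all genes for propeptide removal and cross-linking and lower for the rest, as counts without a test. Of 10 genes for propeptide removal, 8 had a canonical peak, with medians of 17.6 and 18.7, from TLL2 with 77.1 and 75.0 to PCOLCE with 4.60 and 6.63, and MEP1A and MEP1B had none. Of 5 genes for cross-linking, 4 had one in both replicates, from LOXL1 with 42.3 and 52.4 to LOX with 8.05 and 6.63, and LOXL4 had 3.45 in replicate 1 alone. Of 6 collagenases and gelatinases only MMP14 had a canonical peak in both replicates, with 5.75 and 5.31. MMP1 had 4.86 at the canonical TSS in replicate 2 alone, and 4.83 and 5.09 at another TSS. MMP8, MMP9 and MMP13 had no TSS peak, and MMP2 had one only at another TSS, with 25.1 and 18.4. Of 11 receptors 7 had one, led by the epithelial receptor DDR1 with 153 and 140, with the integrin subunits ITGB1 (63.3 and 73.0), ITGA2 (44.2 and 51.1) and ITGA1 (44.2 and 41.8) next, and GP6 lowest with 2.99 and 3.98. OSCAR (58.2 and 57.1) and ITGA11 (11.5 and 11.3) had a peak only at another TSS, and DDR2 and LAIR1 had no TSS peak.

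Marker genes were read as a check of the cell type. All 12 epithelial and luminal markers had a canonical TSS peak in both replicates, with medians of 87.0 and 88.2. Of 12 fibroblast and mesenchymal markers 5 had one in both replicates, with medians of 11.3 and 11.9 over these 5, from ACTA2 with 61.0 and 55.7 to LUM with 4.83 and 3.10, and VIM had one of 3.54 in replicate 2 alone. At any TSS 8 of these 12 had a peak in both replicates, beside 80.5% of all genes, among them VIM with 52.2 and 54.8 and PDGFRB with 64.7 and 67.2, both above the medians of all genes with one. FAP and DCN had a peak only at another TSS, PRRX1 had one there in replicate 2 alone, and THY1, POSTN and TWIST2 had no TSS peak in either replicate. Of 6 basal epithelial markers 3 had a canonical peak, MYLK, KRT5 and KRT17, and of 6 cartilage markers 3 had one, ACAN, MATN1 and MATN3. Canonical peaks were thus found in 22 of 42 collagens, 5 of 12 fibroblast markers and 12 of 12 luminal markers, beside 74.6% of all genes, as counts without a test.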

How the data were processed

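Reads of each ATAC-seq replicate were trimmed (Trim Galore 0.6.5), aligned to hg38 (Bowtie2 2.3.5.1) and used to call peaks without pooling (MACS2 2.2.6) by the authors, per the submitters' processing notes. Peak settings and the treatment of duplicates are not given in the sources used here. The authors deposited a score, a fold enrichment (a ratio), and the −log10 p-value and −log10 q-value of each peak, without read counts. Fold enrichments were multiples of 0.230 and 0.221, the value of 1 read, which gave the reads stacked at each peak. Exact Poisson intervals cover counting error only. The minimum −log10 q was 2.24 and 2.07. Copy number was not analysed here.

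Genes and TSSs came from GENCODE release 44, overlaps needed 1 bp, and a gene took its strongest TSS peak in each replicate. Promoter windows were read from hg38, and the sequence of 1 promoter is not reported here. Values were given for each gene of the 3 main classes, for each other collagen with a TSS peak, for the 5 densest gene bodies and the 5 strongest regions, and for the highest, the lowest and the missing genes of the 6 lists of genes that act on collagen. Marker lists are given mainly as counts. Members, classes and lists were chosen with earlier results of these data known. The canonical TSS and the comparison of bodies with starts were added after seeing the data. The alternatives were a stricter q, the 50000 strongest peaks, other distances and TSS sets, a reciprocal overlap of 50%, and the omission of each replicate. Functions, run in Python 3.11.15 with scipy 1.17.1, numpy 2.4.6 and matplotlib 3.10.9, were tested on simulated data.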

Additional observations from a re-analysis of the deposited data

How the results depend on the processing

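The 8 summary values, 5 counts of genes, 2 summaries of peak strength and the density of regions, were recomputed under 79 combinations of value and alternative, and 52 kept their size, within 1.5 times for counts and within 1 SD of the replicates for the rest. Some of the 52 could not have moved. By this rule the omission of a replicate cannot move the median fold enrichment, and the score ranks the peaks as the fold enrichment does. The count over all genes is also among the 8 values. The counts moved with the TSS definition and with strength. The number of collagens with a TSS peak fell from 34 to 18 with the 50000 strongest peaks of each replicate (11972 of all genes), to 22 at the canonical TSS and to 11 over it. The fibrillar count went from 10 to 3, to 6 and to 2 under the same choices, and to 4 within 100 bp of a TSS. The basement membrane count went from 6 to 3 over the canonical TSS. The median fold enrichment of 31.2 became 35.1 for peaks whose −log10 q reached 10, 52.6 with the 50000 strongest peaks, 26.3 with the most 5′ TSS, 27.0 with protein-coding transcripts, 38.4 within 100 bp, 39.3 within 3 kb, 33.1 with a reciprocal overlap of 50% and 28.7 at the canonical TSS. These alternatives change which genes enter the median. The density of 7.61 became 5.51, 1.25, 8.75, 8.34, 8.33, 6.52 and 7.32 under the first 7 of these, 7.44 without the first 10 kb of each gene and 7.45 without regions near the TSS of any gene. With either replicate left out it was between 9.24 and 9.33, since a region then needs a peak in 1 replicate alone. The choices of the canonical TSS were made after seeing the data. No paired analysis was possible because there was 1 condition. The strongest TSS peak of a collagen rested on as few as 17 reads, and a gene without a peak was not detectable as open at this depth rather than closed.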

Other observations

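COL4A5 and COL4A6, the X-linked type IV genes left out by the choice of autosomes, form the third head-to-head pair, with canonical starts 1416 bp apart. A single peak with a fold enrichment of 15.9 in replicate 1 and 13.0 in replicate 2 lay within 1 kb of the pair and within 1 kb of the canonical TSS of COL4A5 but not of COL4A6. It was thus lower than the peak of COL4A3 and COL4A4 (39.3 and 34.5) and stood where COL4A1 and COL4A2 had none. COL4A5 held 3 regions away from its TSSs (1.16 per 100 kb) and COL4A6 held 7 (2.47 per 100 kb), both fewer per length than COL4A3 and COL4A4 (4.0 and 4.33). Peak strengths on X and on autosomes were not scaled for the number of copies.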
